A study of Mus musculus with 10 samples.

Results

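Apolipoproteins, the protein parts of lipoprotein particles, and the receptors and transfer proteins that handle those particles were followed in the abdominal aorta of mice without apolipoprotein E. The 9 genes chosen by name were Apoe, Apoc1, Apoc2, Apod, Apoa1, Apob, Lrp1, Vldlr and Pltp. All 9 had a probe in the value table, and 8 could be tested, beside 17991 genes tested in all. Apod, which encodes a lipid-carrying lipocalin, had 1 probe that was blank on all arrays, as were 153 probes in the table, and is described no further. Vldlr had 2 probes and each of the other genes had 1. The brighter Vldlr probe stood for the gene.

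Apolipoproteins hold lipoproteins together and direct them to enzymes and receptors. ApoE is the ligand through which remnant particles are taken up by members of the LDL receptor family, and macrophages of the artery wall are a known source of it. ApoC-II activates lipoprotein lipase and ApoC-I restrains lipid clearance. ApoA-I is the main protein of HDL and ApoB the scaffold of VLDL and LDL, both made chiefly in liver and intestine.

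The samples came from male ApoE-/- mice that were 14 weeks old, with aortas of 2 mice in each of 5 pools. Each pool was cut at the kidney arteries into a lower (infrarenal) and an upper (suprarenal) part, which gave 10 single-colour arrays numbered by pool as 1, 6, 8, 11 and 12. All groups share the ApoE-/- genotype. The labels name neither the diet nor the design of the knocked-out allele, and no wild-type aorta was analysed here. The question was whether gene expression differs between the 2 parts of the same vessel.

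Levels are given as log2 intensity, where 0 lies close to the median probe of an array, and regions and arrays are compared within a probe only. The share of dimmer probes is given only to place a signal on the scale of the arrays. The smooth muscle markers Acta2 and Myh11 were brighter than over 99% of probes, as were the adipocyte markers Adipoq and Ucp1. The liver marker Alb was dimmer than the median probe. The skeletal muscle marker sum spanned 27.9 to 532 intensity units across arrays. It was highest on suprarenal array 12 and read 83.5 on the infrarenal array of that pool. In pools 1, 6, 8 and 11 it read 61.4, 173, 504 and 356 in infrarenal aorta. The suprarenal values of those pools were 264, 27.9, 274 and 29.8. The infrarenal sum was thus higher in pools 6, 8 and 11 and lower in pools 1 and 12. Pool 12 stood apart: across probes brighter than the median, which are not independent replicates, its regional differences had r = -0.42 against the mean over the remaining pools. An exchange of the labels of its 2 arrays would turn the sign of every pool 12 difference and was not tested. The part of tissue content in the pool 12 differences was not tested either. Pool 1 had r = -0.14, and the other 3 pools were positive. The difference of each of the 8 genes is therefore also given without pool 12.

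None of the 8 genes passed the test between the regions (limma, adjusted p under 0.05), and 0% of all probes did. At an unadjusted p under 0.05, 0 of the 8 genes passed, beside 8.05% of all genes. Differences (infrarenal minus suprarenal) were negative for 6 of the 8, beside 60.4% of all genes. The median difference of the 8 was -0.19 log2 units (-0.38 without pool 1, and between -0.16 and -0.10 without each of the others), beside -0.05 for all genes. After quantile normalization 6 of the 8 were again negative, beside 49.7% of all genes, with Apob turned negative and Lrp1 positive. The median was then -0.14, beside 0.0014 for all genes. In 0 of the 8 genes did all pools share a sign, beside 9.15% of all genes. The genes differed in their spread between arrays. Among the 6 genes brighter than the median probe, the SD within regions was 0.82 for Apoc1, 0.55 for Apoc2 and 1.22 for Apoa1, larger than in over 96% of such probes. It was 0.24 for Lrp1, 0.11 for Vldlr and 0.15 for Pltp, and smaller ones were found in 70.1%, 14.1% and 30.5% of such probes. In whole tissue, fewer cells of a type and less RNA per cell cannot be told apart.

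Apoc2 and Apoa1 have a RefSeq entry and, with Apoc1, had the largest SD within regions of the genes brighter than the median probe. The stretches of 250 bases before the gene starts are shown for them and for Apoe, the gene named in the genotype. They run 5′ to 3′ along the gene and are from RefSeq on GRCm38.p6, where 8 of the 9 genes have an entry and Apoc1 has none. Capitals mark the letters AGGTCA, the half-site of nuclear receptors, or TATAAA, the TATA box, on either strand.
Apoe (chr7:19699189-19699438, minus strand, the first of 3 starts listed): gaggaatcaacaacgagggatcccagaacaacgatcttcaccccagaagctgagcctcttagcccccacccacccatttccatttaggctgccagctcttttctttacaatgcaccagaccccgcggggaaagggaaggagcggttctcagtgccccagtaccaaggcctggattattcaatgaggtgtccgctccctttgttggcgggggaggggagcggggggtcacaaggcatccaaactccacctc
Apoc2 (chr7:19677942-19678191, minus strand): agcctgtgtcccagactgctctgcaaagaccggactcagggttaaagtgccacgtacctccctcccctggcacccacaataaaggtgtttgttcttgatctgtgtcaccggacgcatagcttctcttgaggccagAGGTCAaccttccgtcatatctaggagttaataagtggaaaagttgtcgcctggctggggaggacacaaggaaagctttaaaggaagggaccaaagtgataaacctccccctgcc
Apoa1 (chr9:46228380-46228629, plus strand): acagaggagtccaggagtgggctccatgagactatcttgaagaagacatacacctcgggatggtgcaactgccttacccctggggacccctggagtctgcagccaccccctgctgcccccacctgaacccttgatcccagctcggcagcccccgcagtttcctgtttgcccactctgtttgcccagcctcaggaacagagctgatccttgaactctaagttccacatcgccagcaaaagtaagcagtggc
Among the 3 windows, 1 half-site was found, in Apoc2, starting 115 bases before the gene start, and no TATAAA. Over all 32851 RefSeq windows of this length, 14.0% hold AGGTCA and 12.4% hold TATAAA on either strand. Of the windows of the 8 genes, Apob has TATAAA 60 bases before its start, and the second Apoe start has it on both strands. Direct repeats of that half-site with 1 or 4 bases between the copies, read on both strands, were found in 0.0335% and 0.0152% of all windows and in none of these genes.

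Apoe itself, the gene named in the ApoE-/- genotype, read close to the bottom of the scale. Only 1.77% of the tested probes were dimmer on average. The infrarenal levels were -4.32, -3.19, -3.16, -5.09 and -4.93 log2 units in pools 1, 6, 8, 11 and 12. The suprarenal levels were -3.12, -4.09, -4.42, -3.71 and -2.57 in the same order. All 10 values lay above the floor of -5.17 at which low values were set, and the regions overlapped widely. Infrarenal arrays of pools 11 and 12 were lowest and suprarenal array 12 highest. The infrarenal mean was -4.14 ± 0.92 and the suprarenal mean -3.58 ± 0.74 log2 units (SD, n = 5 each). The difference of -0.56 ± 0.68 log2 units (SE, 5 pools; 95% interval -2.12 to 1.002) did not pass (limma adjusted p = 0.811), and it was negative in 3 of 5 pools. Without pool 12 it was -0.10, with an offset in place of the floor -0.11, and without pools 6, 8 and 11, each left out alone, -0.92, -1.01 and -0.35. The sources do not say which part of the transcript the probe reads. Without a wild-type array, the low reading cannot be credited to the knockout.

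Apoc1 spanned 2.62 log2 units over the 10 arrays. RefSeq places it next to Apoe on chromosome 7, followed by Apoc4 and Apoc2. In infrarenal aorta it read 4.18, 2.995, 4.05, 3.08 and 3.53 log2 units in pools 1, 6, 8, 11 and 12. In suprarenal aorta it read 4.39, 5.18, 4.85, 3.91 and 2.56. The regions overlapped, with and without pool 12. Suprarenal array 12 had the lowest level of all, and the other 4 suprarenal arrays each exceeded their infrarenal partner. Within regions the SD was 0.82, and 98.7% of the probes brighter than the median had a smaller one. The difference was -0.61 ± 0.37 log2 units (SE, 5 pools; 95% interval -1.46 to 0.24; limma adjusted p = 0.661), from -2.19 in pool 6 to 0.97 in pool 12. Without pool 12 it was -1.005 (unadjusted p = 0.00744, limma adjusted p = 0.384), and without pool 6 it was -0.22, so both pools decide its size. Pool 12 was singled out by the regional differences in these same data, so the p-value without it is not independent support. Probes with an unadjusted p under 0.05 in limma rose from 2726 to 3933 by the same step.

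Apoc2, the lipase activator, varied over a smaller range of 1.54 log2 units. In infrarenal aorta it read 0.80, 0.16, -0.12, -0.30 and -0.46 log2 units in pools 1, 6, 8, 11 and 12. In suprarenal aorta it read 0.43, 0.91, 0.58, -0.10 and -0.63. The suprarenal part was higher in pools 6, 8 and 11 and lower in pools 1 and 12, and the regions overlapped. The difference was -0.22 ± 0.19 log2 units (SE, 5 pools; 95% interval -0.66 to 0.21; limma adjusted p = 0.732). It was -0.32 without pool 12, -0.37 without pool 1, -0.09 without pool 6 and -0.11 without pool 8. RefSeq also lists a transcript that joins Apoc4 and Apoc2 (Gm44805), and the sources do not say whether the probe reads it. Apoc4, the remaining gene of the cluster, differed by -0.29 ± 0.20 (SE; limma adjusted p = 0.683), with -0.99 in pool 6 and 0.20 in pool 12.

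Apoa1, which encodes the main protein of HDL, had the widest spread relative to bright probes, with an SD within regions of 1.22 that 99.5% of them did not reach. It read -0.0075, -0.43, 1.44, -0.60 and -0.24 log2 units in infrarenal aorta of pools 1, 6, 8, 11 and 12. In suprarenal aorta it read -0.88, 0.80, 2.47, 0.56 and -1.38. Both parts of pool 8 were the highest of their region, while suprarenal arrays 1 and 12 were the lowest of all. The difference turned with the pool: it was -1.23, -1.03 and -1.16 in pools 6, 8 and 11 but 0.87 and 1.14 in pools 1 and 12. The mean of -0.28 ± 0.39 (SE, 5 pools; 95% interval -1.17 to 0.61) did not pass (limma adjusted p = 0.835). It was -0.64 without pool 12 and -0.04 without pool 6, with adjusted p = 0.529 and 0.993 in limma. Without pools 8, 11 and 1, each left out alone, it was -0.09, -0.06 and -0.57.

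Apoa1 lies on chromosome 9 beside Apoc3, Apoa4 and Apoa5, other apolipoprotein genes. Apoc3, an inhibitor of triglyceride clearance, spanned -0.64 to 2.37 log2 units in suprarenal and -0.19 to 1.69 in infrarenal aorta. Its lowest and highest levels were on suprarenal arrays 12 and 6, the same arrays as for Apoc1 and Apoc2. Its pool differences were 0.37, -2.56, -0.26, -0.80 and 1.07 in pools 1, 6, 8, 11 and 12 (mean -0.44 ± 0.44, SE; limma adjusted p = 0.773). Apoa5, a regulator of lipoprotein lipase, stayed between 0.46 and 1.04 on all arrays. Apoa4 was dim, with 7.44% of probes dimmer, and reached the floor on 1 array.

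Apob was dim as well, with 10.4% of probes below it. Its levels ran from -5.17, at the floor, to -2.19 log2 units in infrarenal aorta and from -4.64 to -1.92 in suprarenal aorta. The difference of 0.12 ± 0.75 (SE, 5 pools; 95% interval -1.61 to 1.85; limma adjusted p = 0.969) came from pools at opposite ends, 2.45 in pool 1 and -3.25 in pool 8. Its sign turned to -0.07 without pool 12, -0.46 without pool 1, -0.03 without pool 6 and -0.05 after quantile normalization. It was 0.97 without pool 8 and 0.21 without pool 11, with 1 value at the floor.

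**Figure D1:**
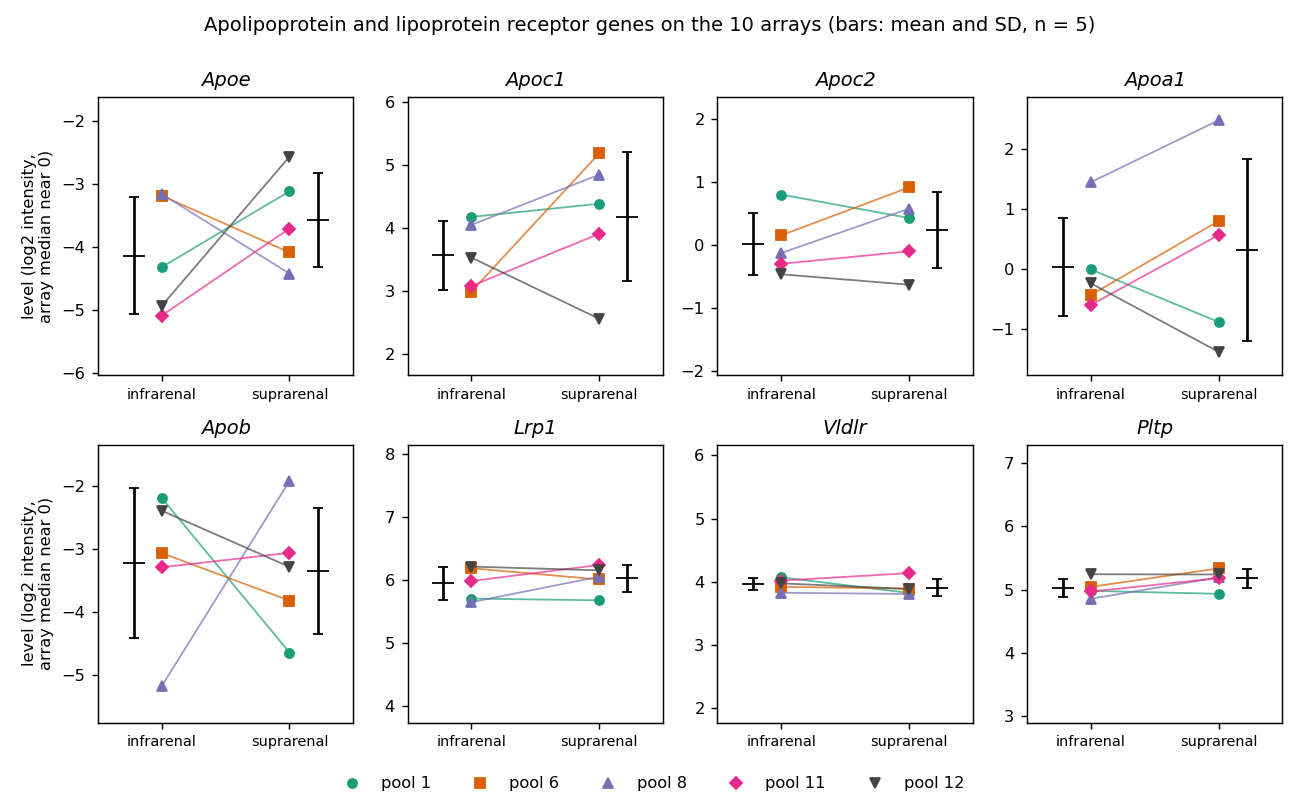
Levels of the 8 tested genes on the 10 arrays, as log2 intensity on the vertical axis (panels have different ranges) and region on the horizontal axis. Symbols are arrays, lines join the 2 parts of a pool and bars give mean and SD (n = 5); Apoc1, Apoc2 and Apoa1 are spread over 2.62, 1.54 and 3.85 log2 units, whereas Lrp1, Vldlr and Pltp stay within 0.59, 0.33 and 0.48.

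Lrp1 encodes a large endocytic receptor for remnant particles and many other ligands, found in smooth muscle cells, fibroblasts and macrophages. In infrarenal aorta Lrp1 read 5.71, 6.19, 5.65, 5.99 and 6.22 log2 units in pools 1, 6, 8, 11 and 12, and in suprarenal aorta 5.68, 6.01, 6.06, 6.24 and 6.16. Both parts of pool 1 were low and the regions overlapped throughout. The SD within regions was 0.24, and 70.1% of the probes brighter than the median had a smaller one. The difference of -0.08 ± 0.10 (SE, 5 pools; 95% interval -0.31 to 0.15; limma adjusted p = 0.82) was negative in 2 of 5 pools. It was -0.11 without pool 12, -0.14 without pool 6 and -0.03 without pool 11, and it turned to 0.08 after quantile normalization and to 0.0027 without pool 8. The interval leaves room for an infrarenal level up to 0.31 log2 units lower.

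Vldlr, the receptor for triglyceride-rich particles, was read by 2 probes. The brighter one lay between 3.82 and 4.07 log2 units in infrarenal and between 3.80 and 4.13 in suprarenal aorta. Its within-region SD of 0.11 was undercut by only 14.1% of probes brighter than the median. The difference was 0.05 ± 0.08 (SE, 5 pools; 95% interval -0.13 to 0.24; limma adjusted p = 0.849), and 0.04 without pool 12. It was 0.096 without pool 11, 0.0049 without pool 1 and 0.15 after quantile normalization. The dimmer probe differed by -0.09 ± 0.07 (SE; 95% interval -0.26 to 0.08; limma adjusted p = 0.737) and was negative in 4 of 5 pools. The 2 probes thus disagreed in sign, and their mean gave -0.017.

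Pltp, which encodes the plasma phospholipid transfer protein that remodels HDL, had the smallest p of the 8 genes. In infrarenal aorta it read 4.98, 5.04, 4.85, 4.97 and 5.24 log2 units in pools 1, 6, 8, 11 and 12. In suprarenal aorta it read 4.93, 5.33, 5.19, 5.18 and 5.24. The suprarenal part was higher in pools 6, 8 and 11 and nearly equal in pools 1 and 12, where the differences were 0.047 and 0.0040. The mean difference was -0.16 ± 0.09 (SE, 5 pools; 95% interval -0.35 to 0.04; unadjusted p = 0.101, limma adjusted p = 0.65). It was -0.20 without pool 12 and fell to -0.03 after quantile normalization. Both regions overlapped, as they did for all 8 genes; over all genes 1.26% had no overlap.

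**Figure D2:**
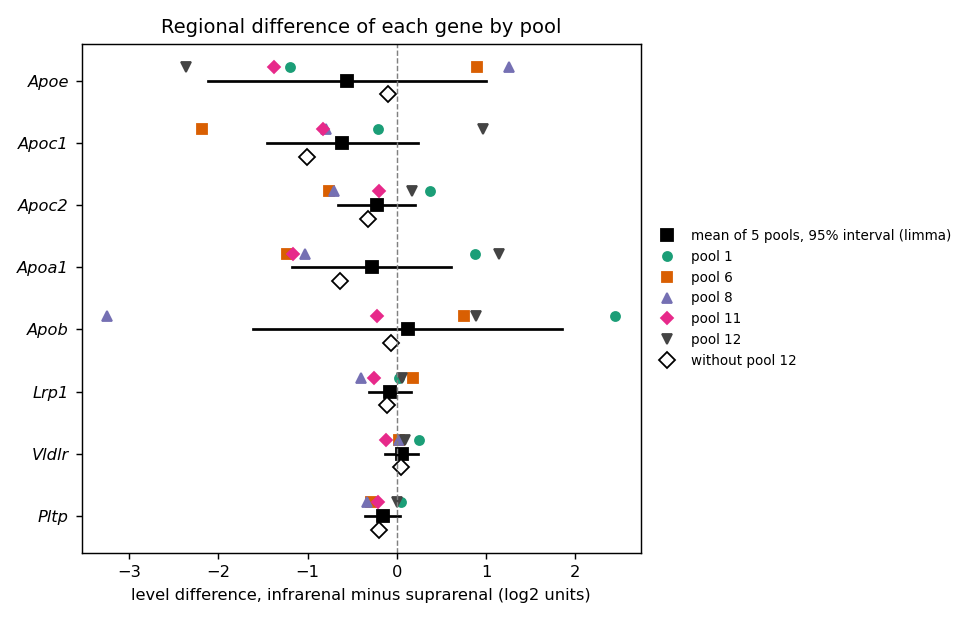
Regional difference of each gene, infrarenal minus suprarenal, in log2 units. Black squares and lines are the limma mean of 5 pools and its 95% interval, coloured symbols single pools and open diamonds the mean without pool 12; every interval includes 0, and Apoc1 moves from -0.61 to -1.005 without pool 12.

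Markers of fat were set beside Apoc1. The summed intensity of 8 general adipocyte markers ran from 595 to 1002 in infrarenal and from 565 to 1210 in suprarenal aorta. Apoc1 put 8 of the 10 arrays at the same rank as this sum, from suprarenal array 12 (2.56 log2 units, sum 565) to suprarenal array 6 (5.18, sum 1210). The remaining 2 arrays, both of pool 1, exchanged ranks 7 and 8. This match holds for the sum, which bright genes such as Fabp4 and Adipoq (means of 8.46 and 7.91 log2 units) dominate. As mean log2 over the same 8 genes, the order differed. These genes include Lipe, which was dim (mean of -3.98 log2 units, values from -5.17, at the floor, to -2.96). Small gaps between the means of arrays therefore say little. Infrarenal array 6 (3.78) was lowest, next to suprarenal array 12 (3.79), and infrarenal array 12 (4.41) lay above infrarenal array 1 (4.35). Suprarenal array 6 (5.18) remained highest. The ranks were compared after the values were seen, and all arrays share the 5 pools. Brown adipocyte markers (8 genes) summed to 203 to 908 in infrarenal and 194 to 1075 in suprarenal aorta, also lowest on suprarenal array 12, where Apoc1, Apoc2 and Apoa1 were lowest. Their highest sum was on suprarenal array 11, where Apoc1 (3.91 log2 units) had rank 5. On suprarenal arrays 6 and 8, with Apoc1 ranks 10 and 9, they read 1003 and 758. Apoa1 did not keep to these sums: suprarenal array 1 was its second lowest (-0.88 log2 units) with a general adipocyte sum of 961, and infrarenal array 8 its second highest (1.44) with a sum of 817.

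Macrophage markers (10 genes) summed to 214 to 272 in infrarenal and 268 to 368 in suprarenal aorta. On suprarenal array 12, the lowest for Apoc1, they read 329. On the other 9 arrays, from the lowest to the highest Apoc1, they read 214, 259, 262, 268, 272, 250, 275, 368 and 301, so apart from array 12 the sums were mostly higher where Apoc1 was higher. Hepatocyte markers (7 genes) summed to 244 to 396 in infrarenal and 218 to 453 in suprarenal aorta. The lowest sum was again on suprarenal array 12 and the highest on suprarenal array 6. That sum is mostly Cyp2e1 and Hp (means of 7.87 and 6.11 log2 units), which fat also expresses, so it is a poor check for liver RNA. Its member Alb averaged -0.80 log2 units. As mean log2 over the same 7 genes, the list was highest on suprarenal (3.10) and infrarenal (2.33) array 8 and lowest on suprarenal array 12 (1.07), as was Apoa1. Suprarenal array 1, the second lowest for Apoa1, read 1.61, above infrarenal array 12 (1.44). The part of these cell types in the differences of the apolipoprotein genes was not tested.

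**Figure D3:**
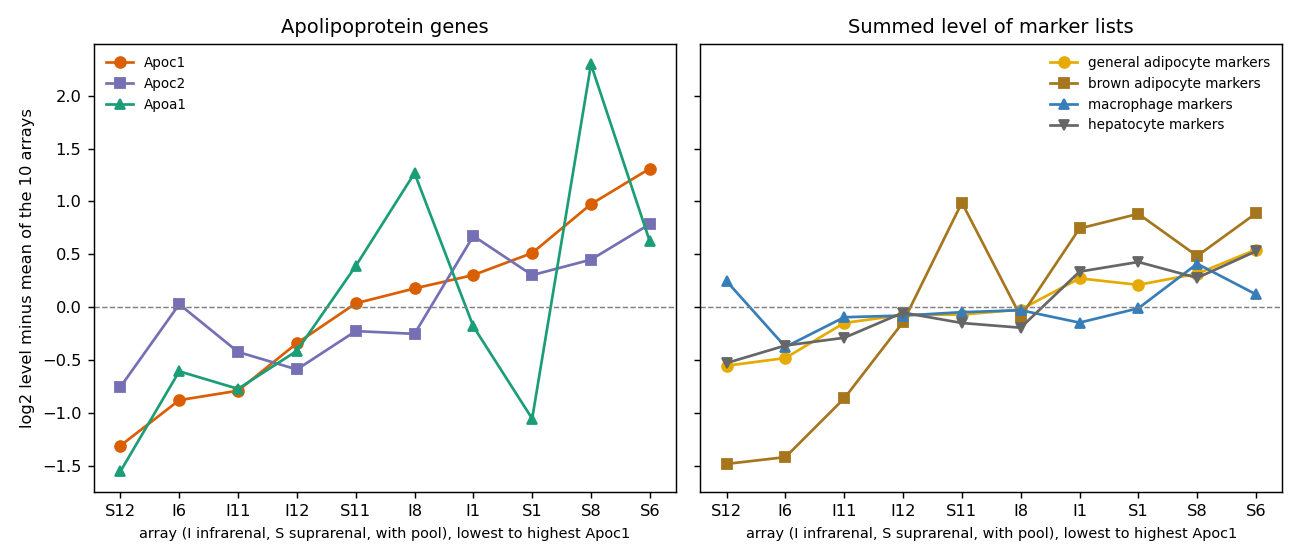
Apoc1, Apoc2 and Apoa1 (left) and the summed intensity of marker lists (right) on each array, in log2 units relative to the mean of the 10 arrays, with arrays ordered from lowest to highest Apoc1. General adipocyte markers rise from 565 to 1210 intensity units along this order, while macrophage markers read 329 on the array with the lowest Apoc1.

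The pattern of each gene over arrays was also compared with 11157 other genes brighter than the median probe, by Pearson's r over the 10 arrays after each region was centred on its mean. These r values are the highest of that many and the arrays come from 5 pools, so they describe likeness only. Closest to Apoc1 were Aldh1l1, an enzyme of folate metabolism, Noc4l and Acp5, a phosphatase of macrophages and osteoclasts, each with r = 0.99. Closest to Apoc2 were Dbt, of branched-chain amino acid breakdown, with r = 0.96, Lpar6 with 0.94 and Parp14 with 0.93. For Apoa1 they were Gpn1 with r = 0.94, Rtf1 with 0.92 and Bpifa1 with 0.91. Lrp1 was closest to Diaph2, a formin that organises actin, with r = 0.99, then to Slc26a6 and Ecm1, both with 0.96. For Pltp the values were 0.93 for 9430053O09Rik and 0.91 for Olfr711 and Cds2. Values were lowest for Vldlr, with 0.89 for Ier3, Srsf9 and Mamstr.

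Of 72 other genes of lipoprotein handling listed, 59 could be tested and 0 passed in either direction in limma. At an unadjusted p under 0.05, 7 were lower and 0 higher in infrarenal aorta, beside 5.89% lower and 2.17% higher over all genes. The number in either direction was 13 without pool 12, 4 without pool 8 and 4 after quantile normalization. The number over all probes moved as well, from 2726 of 36061 with all pools to 3933 of 36058 without pool 12. It was 1802 of 36058 without pool 8 and 2061 of 36061 after quantile normalization. Among 24 receptors and their partners, 15 had negative differences, close to the 60.4% of all genes, and the list median was -0.03. Olr1, the LOX-1 receptor for oxidised LDL, was lower in infrarenal aorta in 5 of 5 pools by value, from -0.50 in pool 8 to -0.08 in pool 1 (mean -0.32 ± 0.10, SE; limma adjusted p = 0.639). Msr1, a macrophage scavenger receptor, was also negative in 5 of 5 pools, from -0.38 to -0.12 (mean -0.23 ± 0.09, SE; limma adjusted p = 0.639). A shared sign in all pools was found in 9.15% of all genes. Lrp5, a coreceptor of Wnt signalling, differed by 0.40 ± 0.21 (SE; limma adjusted p = 0.649).

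Among 17 genes of lipases and lipid transfer, 14 had negative differences, beside 60.4% of all genes, with a list median of -0.24. Pla2g7, a phospholipase carried on lipoproteins, read 2.60 to 3.46 log2 units in infrarenal and 3.34 to 3.85 in suprarenal aorta. Abcg1, a cholesterol exporter, read 1.22 to 1.71 and 1.65 to 2.14. Both were lower in the infrarenal part of every pool, in pool 12 by 0.72 and 0.15, beside 9.15% of all genes with a shared sign. Neither passed (limma adjusted p = 0.639 for each). Lpl, the lipase that ApoC-II activates, differed by -1.24 in pool 6, -1.04 in pool 11 and 0.23 in pool 12, and it did not pass either (limma adjusted p = 0.639). The macrophage sums given above were lower in the infrarenal part of each pool, as were Pla2g7, Abcg1, Olr1 and Msr1. As mean log2, the macrophage list was higher in the infrarenal part of pool 11 (3.22 against 3.19). These genes were named for their small p, so their shared direction partly follows from that choice. The part of macrophages in their differences was not tested.

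**Figure D4:**
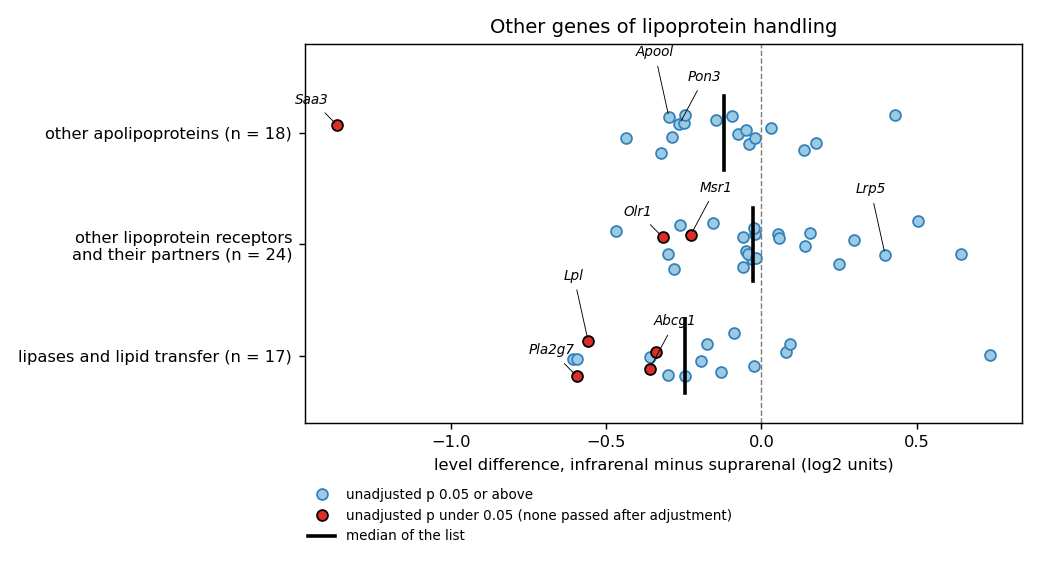
Regional differences of 59 other genes of lipoprotein handling, infrarenal minus suprarenal in log2 units, by list. Points are genes, vertical bars list medians of -0.12, -0.03 and -0.24 from top to bottom, and red marks the 7 genes with an unadjusted p under 0.05, all lower in infrarenal aorta; 0 genes passed after adjustment.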

How the data were processed

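RNA of 10 pooled aorta samples was hybridised to 1 single-colour array each (biotin label, Cy5-streptavidin), per the labels' protocols. The deposited values are linear intensity values scaled per array, with medians of 1.001 to 1.003 as read from the values. For the scanner, background correction and scaling method, nothing is given in the sources used here. Values below percentile 1 of the positive values (intensity 0.0278) were raised to it, 5328 in all, and log2 was taken. A probe needed 3 values per region, which left 36061 of 36227. Symbols of the platform annotation were updated by Entrez identifier for 21487 of 21615 probes with 1 symbol, and the brightest probe stood for a gene.

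The regional test was limma 3.58.1 under R 4.3.3 (variance trend, pool as block, two-sided, Benjamini-Hochberg over all probes, threshold 0.05). The fit was also run on simulated data with independent noise and no pool effect, so that run does not test the pairing. The series design takes both parts of each pool from the same animals, which is the basis of the pairing. As a check, residuals of the 2 arrays of a pool, after the regional mean was removed, had r of 0.045, 0.0064, -0.033, -0.054 and -0.093 in pools 1, 6, 8, 11 and 12. Alternatives were quantile normalization, removal of the dimmest 30% of probes and an added offset of 0.2701 in place of the floor. For the offset, the 1755 values at or below 0 were first set to 0. Further alternatives were no replicate block, each pool left out, no variance trend, array weights and the mean of all probes. The genes and lists were chosen with earlier results of these data known. From the other lists, the 3 genes of smallest p were named, with the neighbours of the apolipoprotein clusters added. Smooth muscle, endothelial, fibroblast, Schwann cell and sympathetic neuron marker sums spanned 1276 to 1398, 104 to 165, 526 to 694, 21.6 to 40.1 and 41.3 to 189 over all arrays.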

Additional observations from a re-analysis of the deposited data

Results flagged for a closer look

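Among 27 sets of 5 values (the levels of each probe in each region and its pool differences), 2 held a value far outside the remaining 4; about 1.35 such cases arise by chance. Infrarenal array 8 read 1.44 log2 units for Apoa1, against -0.60 to -0.0075 on the other infrarenal arrays. Suprarenal array 11 read 4.13 for the brighter Vldlr probe, against 3.80 to 3.89 on the other suprarenal arrays. The dimmer Vldlr probe was also highest on that array, at 3.68.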

How the results depend on the processing

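None of the 8 genes, and 0 of the 59 other genes of lipoprotein handling, passed under any of the 12 alternatives in which they could be tested, and between 5 and 7 of the genes tested had negative differences. After quantile normalization 1 probe of the whole table, of none of these genes, passed, and Apob and Lrp1 turned to -0.052 and 0.082. With each pool left out, Apob ranged from -0.46 to 0.97 and Lrp1 from -0.14 to 0.0027, and the mean of both Vldlr probes was -0.017. Apoe, Apoc1, Apoc2, Apoa1 and Pltp kept their sign throughout, Apoc1 between -1.005 and -0.22 and Apoe between -1.01 and -0.10. With no replicate block 0 probes passed, and Apoc1 had an adjusted p of 0.696 in limma. Apoe and Apob were among the dimmest 30% and gave no value without them. The median 95% half-width was 0.64 log2 units for the 8 genes and 0.31 for all genes, and 5 pools limit the precision.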

Other observations

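Serum amyloid A3 (Saa3), an acute-phase apolipoprotein gene also expressed in fat and macrophages, had the widest regional differences among the other apolipoproteins named here. It read 1.96, 2.97, 1.82, -0.10 and 0.50 log2 units in infrarenal and 1.98, 2.27, 3.70, 3.76 and 2.26 in suprarenal aorta of pools 1, 6, 8, 11 and 12. The suprarenal part was higher by 3.86 in pool 11 and lower by 0.70 in pool 6. The difference of -1.37 ± 0.57 (SE, 5 pools) did not pass (limma adjusted p = 0.639). Pon3, a lactonase carried on HDL, differed by -0.26 ± 0.14 (SE; limma adjusted p = 0.649). Apool, which despite its name encodes a mitochondrial inner membrane protein, was read by 3 probes with differences of -0.30, -0.35 and 0.34, so its direction is uncertain.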
